A study of Mus musculus with 9 samples.

Results

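The skeletal muscle genes described here are 42 listed genes of the contractile apparatus, calcium handling, energy metabolism and muscle regulation, measured in 9 mouse oral tumors on Affymetrix arrays. They were listed by gene symbol, with earlier results of these data known, and are 42 of the 18193 genes on the array that have a probe set with 1 gene symbol. Where a gene had several probe sets, the one of highest mean log2 signal was used. The tumors came from mice aged 1 year and carried p53-/-, p53R172H/- or p53R172H/+, with 3 tumors per genotype. R172H is the mutant allele, paired with a null allele in p53R172H/- and with the normal allele in p53R172H/+. The title of the series adds that Ras was activated in these tumors, so this is shared by all 3 groups, and the labels write K- before each genotype without spelling it out. The labels give neither the place of each tumor in the mouth, nor the promoter or cell type that drives the alleles, nor whether each tumor came from a mouse of its own, and the p-values therefore cover only the spread among these tumors, which may be technical.

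A skeletal muscle fibre contracts when calcium, released from the sarcoplasmic reticulum, binds troponin on the thin actin filament and lets myosin pull on it. Fast and slow fibres build this machine from different members of the same gene families. Fast fibres use the myosin heavy chains Myh1 (type IIx), Myh2 (type IIa) and Myh4 (type IIb) with the fast troponins, whereas slow fibres use Myh7 with the slow troponins, which the heart partly shares. Myh3 and Myh8 are the embryonic and perinatal heavy chains of developing and regenerating muscle, and Myod1 and Myog are transcription factors that direct cells into the muscle lineage and through differentiation. Mouse tongue muscle is made mostly of fast fibres.

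The factors of the Myod1 family bind E-boxes, the letters CANNTG, in front of muscle genes. RefSeq promoter windows of build GRCm38.p6, from 250 bases before to 50 bases after a gene's start, were given for 31 of the 42 genes, as 38 windows. The bases before the start are printed for 3 genes that were high and low in the same tumors and for the slow troponin Tnni1, which was not, with E-boxes on either strand in capitals. The Acta1 window is chr8:123894776-123895025 on the minus strand, the Ckm window chr7:19410844-19411093 on the plus strand, the Myh4 window chr11:67237562-67237811 on the plus strand and the first of 2 Tnni1 windows chr1:135799171-135799420 on the plus strand.
Acta1: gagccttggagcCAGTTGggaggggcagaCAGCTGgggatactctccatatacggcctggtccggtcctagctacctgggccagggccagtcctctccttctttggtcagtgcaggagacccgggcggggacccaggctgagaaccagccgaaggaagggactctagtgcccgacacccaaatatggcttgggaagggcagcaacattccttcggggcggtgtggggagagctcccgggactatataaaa
Ckm: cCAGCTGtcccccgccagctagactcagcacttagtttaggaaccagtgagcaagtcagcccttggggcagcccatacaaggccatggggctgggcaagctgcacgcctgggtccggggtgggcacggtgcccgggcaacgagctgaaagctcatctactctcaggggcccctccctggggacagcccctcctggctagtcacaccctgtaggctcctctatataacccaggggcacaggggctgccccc
Myh4: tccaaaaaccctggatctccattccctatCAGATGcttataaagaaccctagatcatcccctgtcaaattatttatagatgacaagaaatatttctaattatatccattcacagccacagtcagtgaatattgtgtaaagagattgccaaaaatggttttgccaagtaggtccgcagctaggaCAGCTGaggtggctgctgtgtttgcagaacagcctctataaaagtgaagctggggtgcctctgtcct
Tnni1: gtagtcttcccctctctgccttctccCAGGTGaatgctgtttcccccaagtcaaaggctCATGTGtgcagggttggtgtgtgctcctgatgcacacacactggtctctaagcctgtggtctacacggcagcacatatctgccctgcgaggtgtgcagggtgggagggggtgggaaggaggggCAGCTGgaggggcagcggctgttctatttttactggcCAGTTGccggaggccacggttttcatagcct
The 4 printed stretches hold 2, 1, 2 and 4 E-boxes in this order, and each holds CAGCTG, an E-box form whose 2 strands read alike. Over the whole windows, an E-box was found in 32 of the 38 muscle gene windows (84.2%) and in 72.3% of all 32851 promoter windows. CAGCTG was found in 19 of the 38 (50%) against 16.3% of all windows, with 5 of 10 fast fibre and 4 of 9 slow fibre windows. Some genes have more than 1 window, so windows are not independent. Counted by gene, CAGCTG was found in 16 of 31 muscle genes (51.6%) against 18.3% of all genes. By class these were 5 of 9 fast fibre and 2 of 6 slow fibre genes. A CArG box, the target of serum response factor, was found in 5 of the 38 windows (13.2%), which belong to 4 genes, and in 1.63% of all. The MEF2 box was found in 1 of the 38 windows, that of Ttn, and in 0.557% of all. TATAAA was found in 9 of the 38 windows (23.7%) and in 13.6% of all. Motifs were searched on both strands. A match is a description of the letters, and these letters stood in front of genes with wide and with narrow ranges over the tumors.

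Signals are the deposited MAS5 values, a linear brightness per probe set. Values under 52.6, the 20th percentile of all values, were raised to this floor before log2 was taken, so a fold against a tumor under the floor is a lower bound, written "at least". Levels are compared between tumors within a probe set and never between probe sets. In the sentences that follow, the values of a genotype are in the order of tumors 1, 2 and 3. The arrays had median signals of 109 to 123 and 99th percentiles of 5455 to 5726. The 3' to 5' signal ratio, a measure of RNA integrity, was 0.929 to 1.03 for Gapdh and 1.31 to 1.69 for beta-actin. For beta-actin it was lowest in p53R172H/- tumor 1 and highest in p53-/- tumor 2. No 2 arrays were copies of each other, since at most 0.0422% of their values were identical. With 3 tumors per genotype, the number of arrays limits the precision.

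Fast fibre genes were high in p53R172H/- tumors 2 and 3 and low in p53R172H/- tumor 1 and p53R172H/+ tumor 2, so the p53R172H/- group held tumors near both ends. Myh1, the IIx heavy chain, gave signals of 666, 731 and 1444 in the p53-/- tumors. It gave 90.1, 5227 and 3456 in the p53R172H/- tumors. It gave 358, 39.9 and 1542 in the p53R172H/+ tumors. The highest tumor was at least 99.4-fold above the lowest, and no other of the 12167 genes tested had as wide a range over the 9 tumors. This holds for the chosen set of 3 Myh1 probe sets. Another set spanned at least 95.3-fold and was also highest in p53R172H/- tumor 2. The third spanned only 2.28-fold, with 98.9 in p53R172H/- tumor 2 and its highest signal, 173, in p53-/- tumor 3. The reason was not tested. The genotype means were 947 ± 432 in p53-/-, 2924 ± 2609 in p53R172H/- and 647 ± 792 in p53R172H/+ (SD, n = 3 each), and all 3 genotypes overlapped. In bulk tumors, fewer muscle cells and less muscle RNA per cell cannot be told apart.

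**Figure D1:**
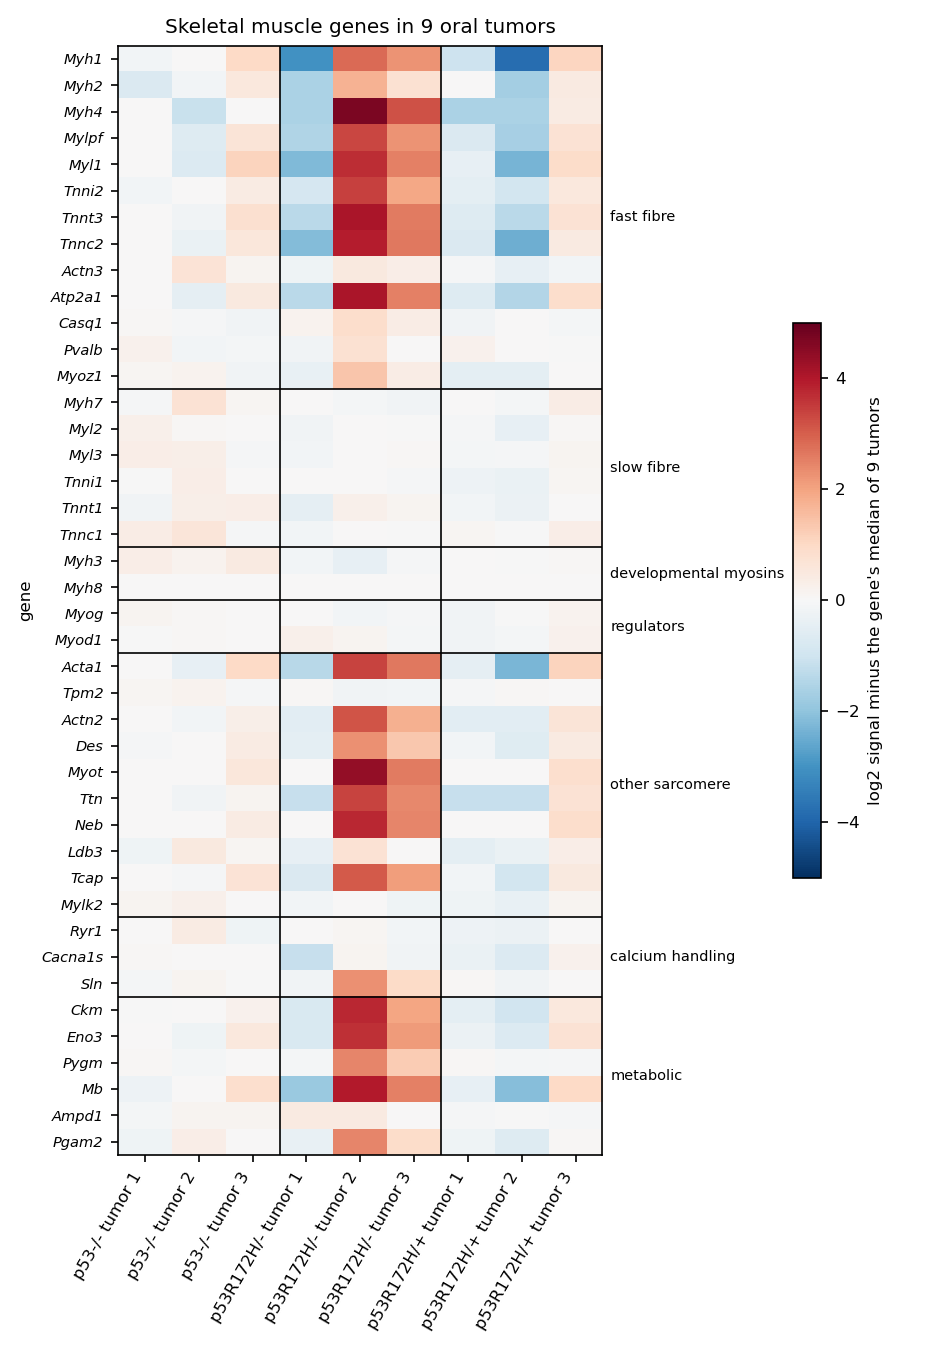
Each cell shows the log2 signal of 1 of the 42 muscle genes (rows, by class) in 1 of the 9 tumors (columns, by genotype) minus that gene's median over the 9 tumors, from blue (lower) to red (higher). In all 42 rows, 26 were highest in p53R172H/- tumor 2 and 24 had p53R172H/- tumors 2 and 3 as their highest pair, and none of these were slow fibre rows, while the 6 slow fibre rows all had ranges under 1 on the log2 scale.

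Myh4, the IIb heavy chain of the fastest fibres, was highest in the same pair of tumors by a wider margin. Its signals were 159, 72.3 and 157 in p53-/-, 24.1, 4099 and 1426 in p53R172H/-, and 28.8, 23.1 and 206 in p53R172H/+. In 3 tumors it lay under the floor, and the highest tumor was at least 78.0-fold above it. Myh2, the IIa heavy chain, had a smaller range, with 104, 153 and 244 in p53-/-, 57.0, 562 and 288 in p53R172H/-, and 169, 52.0 and 233 in p53R172H/+. Its highest tumor was at least 10.7-fold above the floor.

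The 3 adult fast heavy chains shared their highest tumor but not their steps below it. From p53-/- tumor 3 to p53R172H/- tumor 2, Myh4 was 26.1-fold higher, Myh1 3.62-fold and Myh2 2.30-fold. Relative to its own level in p53R172H/- tumor 2, Myh1 stood at 12.7%, 14.0% and 27.6% in the p53-/- tumors, and Myh4 at 3.88%, 1.76% and 3.83%. Myh2 stood at 18.5%, 27.2% and 43.5% there. In p53R172H/- tumor 3 the same shares were 66.1% for Myh1, 51.2% for Myh2 and 34.8% for Myh4. These steps compare single tumors in the chosen probe sets and have no replicate check. Another set spanned only 2.28-fold for Myh1 and 3.84-fold for Myh4. A MAS5 signal need not be proportional to RNA near the floor, whose part was not tested.

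**Figure D2:**
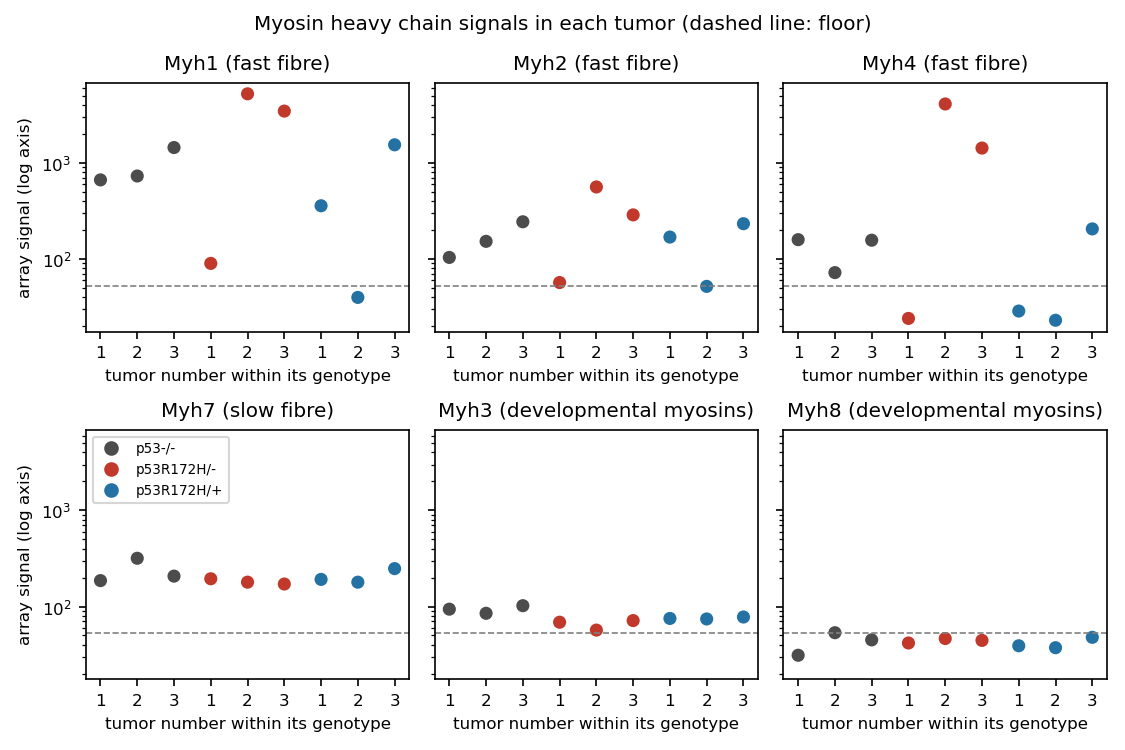
Array signal (log axis) of 6 myosin heavy chains in each of the 9 tumors, coloured by genotype, with the floor of 52.6 as a dashed line. Myh1, Myh2 and Myh4 were highest in p53R172H/- tumor 2, where Myh4 reached 4099, while Myh7, Myh3 and Myh8 kept within 1.85-fold over all 9 tumors once values under the floor were raised to it.

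The fast light chains and troponins followed the same order of tumors. Mylpf, the fast regulatory light chain, gave 295, 187 and 460 in p53-/-, 105, 2968 and 1392 in p53R172H/-, and 179, 92.4 and 483 in p53R172H/+, a 32.1-fold range. Myl1, the fast essential light chain, gave 266, 164 and 582 in p53-/-, 57.0, 3426 and 1513 in p53R172H/-, and 200, 46.2 and 498 in p53R172H/+. Its range was at least 65.2-fold. Both light chains were thus lowest in p53R172H/+ tumor 2 and next lowest in p53R172H/- tumor 1. Next in order below the top pair came p53-/- tumor 3 and p53R172H/+ tumor 3, with a gap. From p53-/- tumor 3 to p53R172H/- tumor 3, Mylpf was 3.03-fold and Myl1 2.60-fold higher.

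Troponin I blocks, troponin T anchors and troponin C senses calcium on the thin filament. Tnni2, fast troponin I, gave 230, 252 and 337 in p53-/-, 142, 2706 and 970 in p53R172H/-, and 181, 132 and 359 in p53R172H/+, a 20.5-fold range. Tnnt3, fast troponin T, gave 134, 119 and 236 in p53-/-, 49.2, 2287 and 816 in p53R172H/-, and 86.2, 41.5 and 219 in p53R172H/+, a range of at least 43.5-fold. Tnnc2, the fast troponin C, gave 285, 225 and 425 in p53-/-, 62.9, 4307 and 1778 in p53R172H/-, and 171, 45.3 and 391 in p53R172H/+, at least 82.0-fold. Each of the 3 fast troponins was highest in p53R172H/- tumor 2. Tnni2 and Tnnc2 were lowest in p53R172H/+ tumor 2, and Tnnt3 was under the floor both there and in p53R172H/- tumor 1.

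Of the fast calcium genes, Atp2a1 had a wide range and the others a narrow one. Atp2a1, the pump SERCA1 that returns calcium to the sarcoplasmic reticulum of fast fibres, gave 224, 164 and 312 in p53-/-, 88.8, 3745 and 1290 in p53R172H/-, and 143, 81.5 and 409 in p53R172H/+, a 46.0-fold range. Casq1, the calcium-storing calsequestrin of fast fibres, gave 178, 166 and 151 in p53-/-, 192, 316 and 223 in p53R172H/-, and 150, 171 and 159 in p53R172H/+, a 2.11-fold range. Its 3 p53R172H/- tumors lay above all 6 others. Of the 42 genes, 1 (Casq1) lay wholly above p53-/- in p53R172H/-, against 9.11% of all genes tested. Wholly above p53R172H/+ were 2 (Casq1 and Ampd1), against 5.27%. Wholly below p53-/- were 2 (Myh3 and Mylk2), against 13.8%, and wholly below p53R172H/+ was 1 (Myh3), against 6.62%. Pvalb, the calcium buffer parvalbumin, was 187 to 249 in 8 tumors and 363 in p53R172H/- tumor 2, a 1.94-fold range.

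The remaining fast genes encode Z-disc proteins. Actn3, the alpha-actinin of fast fibres, gave 129, 205 and 142 in p53-/-, 111, 182 and 163 in p53R172H/-, and 124, 97.4 and 116 in p53R172H/+. It was highest in p53-/- tumor 2, unlike the other 12 fast genes. Myoz1, which ties calcineurin to the Z-disc, spanned 3.76-fold from p53R172H/+ tumor 1 at 140 to p53R172H/- tumor 2 at 525. Of the 13 fast genes, 9 had a log2 range of at least 3 (8-fold), and the median was 5.01.

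No slow fibre gene had a range of 2-fold or more, and none was highest in p53R172H/- tumor 2. Myh7, the slow heavy chain, gave 186, 318 and 207 in p53-/-, 195, 179 and 171.5 in p53R172H/-, and 192, 179 and 248 in p53R172H/+, a 1.85-fold range. Tnni1, slow troponin I, gave 124, 155 and 126 in p53-/-, 126, 124 and 120 in p53R172H/-, and 105, 99.6 and 134 in p53R172H/+, a 1.56-fold range. Tnnt1, slow troponin T, gave 113, 156 and 159 in p53-/-, 93.7, 151 and 141 in p53R172H/-, and 117, 105 and 128 in p53R172H/+, a 1.70-fold range. In all 3 genes the p53R172H/- tumors 2 and 3 lay inside the range of the p53-/- tumors or, for Myh7 and Tnni1, below it, so the tumors at the top in the fast troponins were not at the top here. At the low end, 5 of the 6 slow genes, all but Myh7, were lowest in p53R172H/- tumor 1 or p53R172H/+ tumor 2, as most fast genes were, with per-tumor slow medians there of -0.14 and -0.19 from each gene's median.

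The light chains and troponin C of slow fibres were as flat. Myl2, the slow regulatory light chain, gave 119, 105 and 101 in p53-/-, 89.7, 103 and 98.9 in p53R172H/-, and 95.8, 75.2 and 106 in p53R172H/+. Myl3, the slow essential light chain, was lowest at 132 and highest at 180 over the 9 tumors. Tnnc1, the slow and cardiac troponin C, was lowest at 53.2 and highest at 90.2. Myl2 and Tnnc1 had means under 113, the median signal of all non-control probe sets, and were among the 12 of 42 genes not tested. Whether these slow probe sets would show a rise from such levels was not tested. The median log2 range of the 6 slow genes was 0.71, against 5.01 for the 13 fast genes and 0.55 for all genes tested. From p53R172H/+ tumor 2 to p53R172H/- tumor 2, the lowest and highest tumors in the muscle genes, the median log2 difference was 5.01 in the fast genes (32.1-fold) and 0.20 in the slow genes (1.15-fold).

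**Figure D3:**
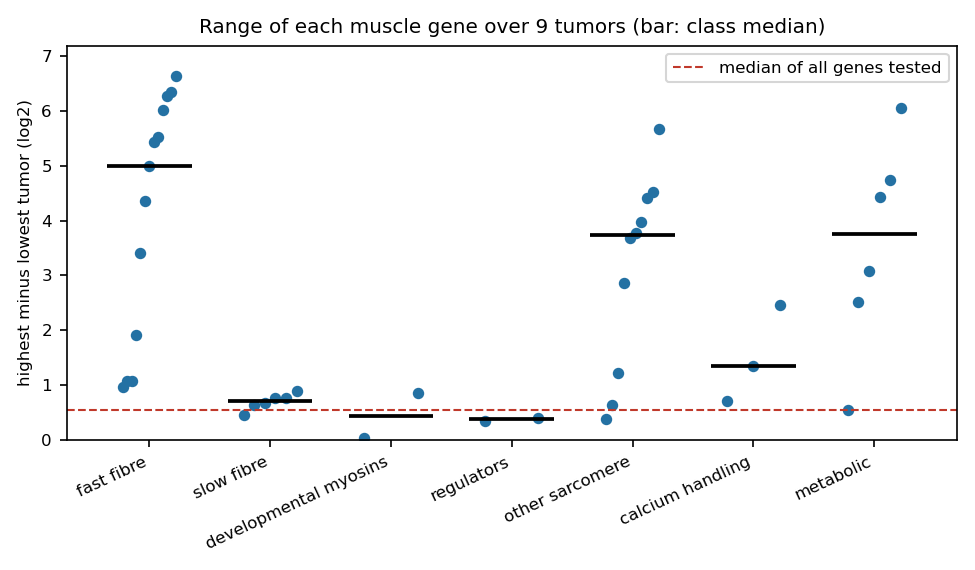
Each point is 1 muscle gene, and the vertical axis is the log2 difference between its highest and lowest tumor after the floor. The fast fibre, other sarcomere and metabolic classes had medians (black bars) of 5.01, 3.73 and 3.76, and the slow fibre genes, the developmental myosins and the regulators lay under 1, near the median of all genes tested (dashed line, 0.55).

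The developmental heavy chains and the regulators did not share the order of the fast genes. Myh3, the embryonic heavy chain, gave 93.9, 85.1 and 102 in p53-/-, 68.7, 56.9 and 71.5 in p53R172H/-, and 75.2, 74.3 and 77.9 in p53R172H/+, and was thus lowest in p53R172H/- tumor 2. Myh8, the perinatal heavy chain, was under the floor in 8 of 9 tumors and at 53.5 in p53-/- tumor 2. Neither was tested.

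Myog gave 134, 128 and 121 in p53-/-, 122, 110 and 115 in p53R172H/-, and 107, 120 and 135 in p53R172H/+, a 1.26-fold range. Myod1 gave 86.5, 92.1 and 87.6 in p53-/-, 103, 96.5 and 82.2 in p53R172H/-, and 78.1, 82.5 and 100.4 in p53R172H/+, a 1.32-fold range. The genotypes overlapped in both regulators.

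The sarcomere genes that both fibre types use split into genes with the order of the fast class and genes that were flat. Acta1, the actin of the skeletal thin filament, gave 722, 536 and 1432 in p53-/-, 273, 7605 and 4440 in p53R172H/-, and 536, 149 and 1555 in p53R172H/+, a 51.2-fold range. Des, desmin, the intermediate filament that links Z-discs, gave 239, 250 and 330 in p53-/-, 180, 1217 and 629 in p53R172H/-, and 230, 167 and 337 in p53R172H/+, a 7.30-fold range. The giant proteins Ttn and Neb and the Z-disc proteins Myot, Actn2 and Tcap all peaked in p53R172H/- tumor 2, with signals there of 1211, 721, 1115, 679 and 1246. Their ranges were at least 23.0, 13.7, 21.2 and 12.9-fold for the first 4, which lay under the floor in some tumors, and 15.7-fold for Tcap. Of the 10 genes, 6 had a log2 range of at least 3, and Mylk2, the kinase of skeletal light chains, spanned 1.54-fold. Ldb3, a Z-disc protein that binds alpha-actinin, gave 141 to 329 in its chosen probe set, a 2.33-fold range, and at least 4.54-fold in another set that was also highest in p53R172H/- tumor 2.

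Tpm2, the beta-tropomyosin of the thin filament, depended on the probe set. The chosen set was bright and flat, at 5650 to 7290 with a 1.29-fold range. Another set of the same gene gave 160, 150 and 171.9 in p53-/-, 124, 592 and 316 in p53R172H/-, and 125, 135 and 173 in p53R172H/+, a 4.77-fold range with the same pair of tumors highest as in the fast genes. The calcium release channel Ryr1 did the same, with 113 to 186 in the chosen set and a 1.64-fold range. Its other set gave 73.4, 70.7 and 95.8 in p53-/-, 57.2, 495 and 221 in p53R172H/-, and 61.9, 52.0 and 92.2 in p53R172H/+. These were the 2 of 14 members with several probe sets in which another set was wider than the chosen one by at least 1 on the log2 scale. This count leaves out sets narrower than the chosen one. The other set of Ckm, Mb and Des spanned 1.97, 1.47 and 1.43-fold, against 26.8, 66.9 and 7.30-fold in the chosen sets. None of these narrow sets was highest in p53R172H/- tumor 2. Other sets of Tnni2 included spans of 32.9 and 2.69-fold, and those of Ttn at least 27.2 and 2.36-fold. The reason for the difference between sets was not tested.

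Of the other calcium genes, Sln, sarcolipin, which inhibits the calcium pump, gave 55.6, 63.9 and 57.6 in p53-/-, 46.1, 289 and 113 in p53R172H/-, and 61.6, 44.1 and 58.9 in p53R172H/+, at least 5.50-fold. Cacna1s, the voltage sensor of the transverse tubule, was lowest at 53.1 in p53R172H/- tumor 1 and highest at 136 in p53R172H/+ tumor 3.

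The metabolic genes had the order of the fast class. Ckm, muscle creatine kinase, which buffers ATP, gave 199, 204 and 238 in p53-/-, 119, 2788 and 792 in p53R172H/-, and 145, 104 and 298 in p53R172H/+, a 26.8-fold range. Mb, myoglobin, the oxygen store, gave 271, 323 and 576 in p53-/-, 89.2, 5006 and 1833 in p53R172H/-, and 246, 74.8 and 640 in p53R172H/+, a 66.9-fold range. The muscle forms of glycolytic enzymes, Eno3 (enolase) and Pgam2 (phosphoglycerate mutase), spanned 21.6 and 8.50-fold, and Pygm, glycogen phosphorylase, at least 5.73-fold, all highest in p53R172H/- tumor 2. Ampd1, muscle AMP deaminase, stayed between 62.7 and 91.6, and it was highest in p53R172H/- tumor 1.

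A log2 range of at least 3 was reached by 19 of the 42 muscle genes, and by 127 of all 12167 genes tested (1.04%). The highest tumor was p53R172H/- tumor 2 for 26 of the 42, against 12.3% of all genes tested. The top 2 tumors were p53R172H/- tumors 2 and 3 for 24 of the 42, against 5.32%. The lowest tumor was p53R172H/- tumor 1 or p53R172H/+ tumor 2 for 33 of the 42, against 29.8%, with tumors at the floor counted as lowest, which takes in Myh8. The genes share their arrays, so these counts describe an order of tumors and are not independent. A tested gene had to pass a mean of 113, which some muscle genes passed through their high tumors, so the muscle counts here are over all 42. The counts of test results given below cover only the muscle genes tested and carry this limit.

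Between genotypes, no muscle gene passed the test. The comparisons ask whether the R172H allele, with or without the normal allele, goes with different expression from loss of p53. In p53R172H/- minus p53-/-, 27 of the 42 genes had a higher mean in p53R172H/- and 15 a lower one, and the median log2 difference was 0.48, against -0.03 over all genes tested. The median was 1.18 in the 13 fast genes, of which 12 were higher, -0.19 in the 6 slow genes, of which 0 were higher, 1.30 in the 10 other sarcomere genes and 1.28 in the 6 metabolic genes. The log2 difference was 2.47 ± 1.35 (SE, n = 3 per group) for Myh4, 1.59 ± 0.93 for Ckm, 1.35 ± 1.21 for Acta1 and 0.40 ± 1.56 for Myh1, with adjusted p of 0.393, 0.417, 0.586 and 0.915 by limma. In each of these 4 genes p53R172H/- tumor 1 was among the 2 lowest of the 9 tumors, while the other two tumors of its genotype were the 2 highest.

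In that comparison the limma test with Benjamini-Hochberg adjustment called 0 of the 30 muscle genes tested and 0 of all genes (0%), with a lowest adjusted p over all genes of 0.202. At an unadjusted p under 0.05 it gave 1 muscle gene higher and 0 lower, against 783 genes (6.44%) higher and 1114 genes (9.16%) lower of all tested. The 1 muscle gene was Casq1, with a log2 difference of 0.54 ± 0.17 (SE) and an adjusted p of 0.257 by limma. Myh7 differed by -0.34 ± 0.20 (SE) and Tnni1 by -0.12 ± 0.14, with adjusted p of 0.419 and 0.689 by limma.

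In p53R172H/+ minus p53-/-, 39 of the 42 muscle genes had a lower mean in p53R172H/+, by a median of -0.28 on the log2 scale, against -0.03 over all genes tested. The median was -0.47 in the fast genes and -0.22 in the slow genes, so both fibre classes lay on the same side here. Myh1 differed by -1.53 ± 1.56 (SE), Tnnc2 by -0.98 ± 1.36 and Actn3 by -0.47 ± 0.23, with adjusted p of 0.720, 0.802 and 0.499 by limma. limma called 0 genes (0%), and at an unadjusted p under 0.05 0 muscle genes passed in either direction, against 4.75% of all genes higher and 5.60% lower. This comparison and the one before it share the p53-/- tumors.

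In p53R172H/- minus p53R172H/+, 34 of the 42 genes had a higher mean in p53R172H/-, 7 a lower one and 1 was at the floor in both, with a median of 0.93, against -0.01 over all genes tested. All 13 fast genes had a higher mean, with a median of 1.92, and the 6 slow genes split 3 to 3 with a median of 0.03. Myh4 differed by 3.03 ± 1.35 (SE), Tnnc2 by 2.37 ± 1.36 and Acta1 by 2.07 ± 1.21, each with an adjusted p of 0.949 by limma. limma called 0 genes (0%). At an unadjusted p under 0.05 1 muscle gene was higher, again Casq1 (0.58 ± 0.17 (SE), adjusted p = 0.948), and 0 were lower, against 2.00% of all genes higher and 2.96% lower.

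**Figure D4:**
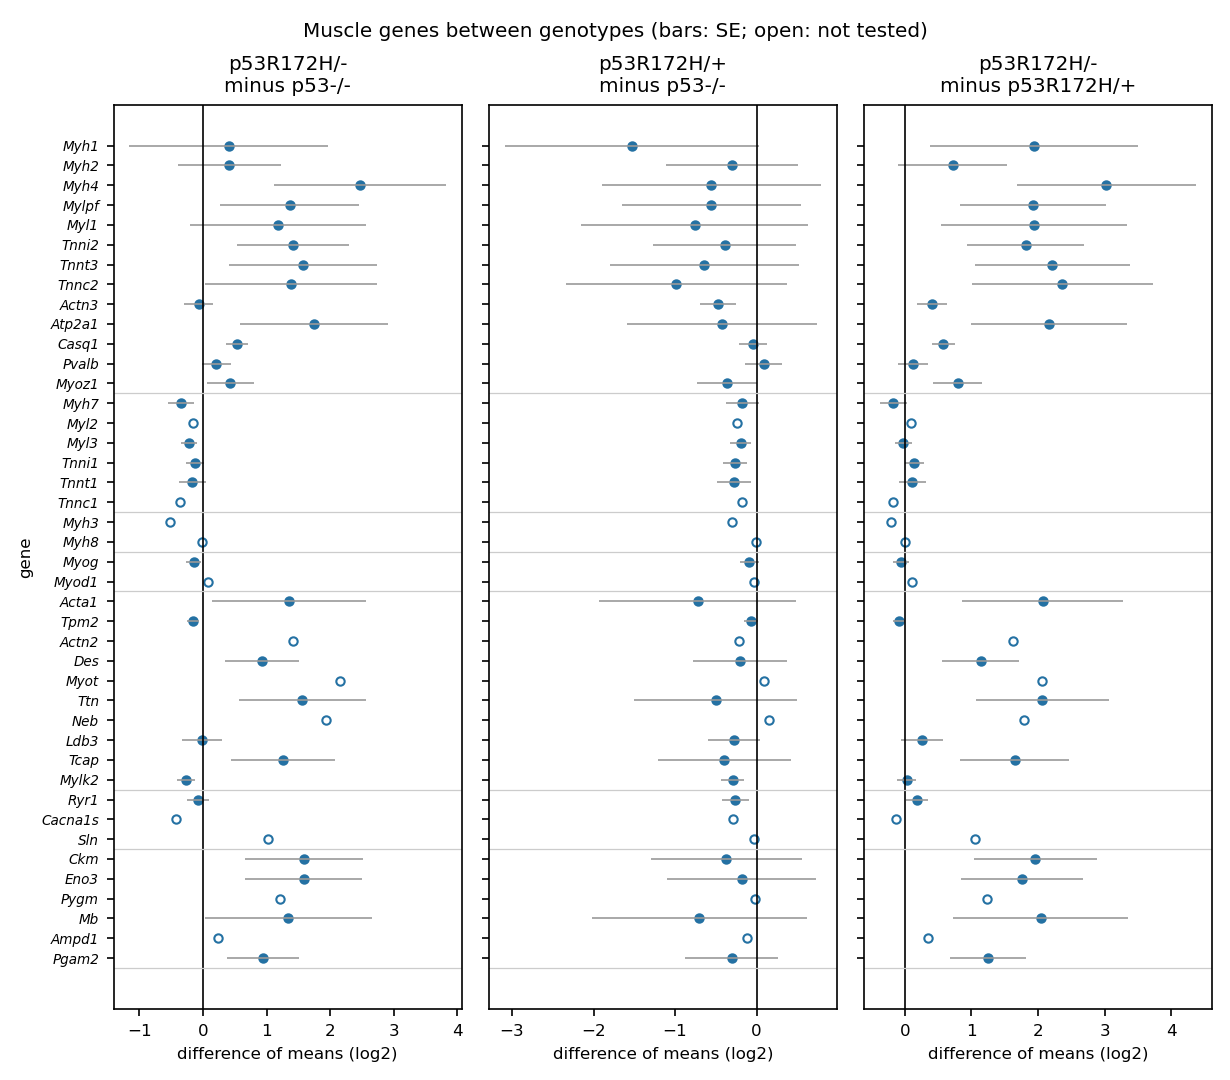
Log2 difference between genotype means for each of the 42 muscle genes in the 3 comparisons, with bars of 1 SE from the limma fit for the 30 genes tested and open points for the 12 not tested. Against p53-/-, the p53R172H/- mean was higher for 12 of 13 fast fibre, 7 of 10 other sarcomere and 6 of 6 metabolic genes, and against p53R172H/+ for 13, 9 and 6, with wide bars such as 1.35 for Myh4, and Tnni1 of the slow genes had a bar of 0.14.

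These values depended on which p53R172H/- tumors were in the fit. Without p53R172H/- tumor 1, the muscle median was 1.49 in place of 0.48 against p53-/- and 1.65 in place of 0.93 against p53R172H/+. Of the 30 muscle genes tested, the number at an unadjusted p under 0.05 was 18 in place of 1 (17 higher, 1 lower) and 20 in place of 1 (all higher). Of all genes, 6.29% and 4.92% passed in the higher direction. None passed after adjustment (lowest adjusted p of a muscle gene 0.259 and 0.195 by limma). The tumor left out was the low one of its genotype in these same genes. Some of the 30 also passed the filter through the 2 tumors kept, so setting these counts against the shares is no test. Without both p53R172H/- tumors 2 and 3, which leaves 1 tumor assumed to vary like the other groups, the medians turned to -0.48 and -0.28. The within-group spread of the fast genes was 1.31 (pooled SD of their mean log2 level), against 0.16 for the slow genes.

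Of 62 further genes of muscle structure and metabolism, 55 were on the array. Of these, 36 were highest in p53R172H/- tumor 2, against 12.3% of all genes tested, 10 were highest in p53-/- tumor 2 and 9 had a log2 range of at least 3. The widest were Cmya5, a costamere protein, at least 21.0-fold, Myom1, which crosslinks myosin at the M-band, at 20.1-fold, Cox8b, a muscle subunit of cytochrome oxidase, at 17.2-fold, and Fhl1, a LIM protein, at 16.7-fold. Fhl1 gave 358, 409 and 802 in p53-/-, 182, 3043 and 1907 in p53R172H/-, and 362, 280 and 799 in p53R172H/+. None of the 28 that were tested passed the adjusted test in any comparison.

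Of 8 further genes used as slow fibre genes, 1 had a log2 range of at least 3. It was Csrp3, muscle LIM protein, with 117, 94.4 and 223 in p53-/-, 54.2, 1009 and 486 in p53R172H/-, and 91.5, 41.5 and 261 in p53R172H/+. Myoz2, a Z-disc protein, spanned 5.98-fold with its highest signal of 344 in p53R172H/- tumor 2. Ankrd2, a stress-responsive protein of the sarcomere, was also highest in p53R172H/- tumor 2, at 227, and lowest in p53R172H/+ tumor 2, at 99.7. Casq2, the cardiac and slow calsequestrin, spanned 2.12-fold and was highest in p53R172H/- tumor 1. So 3 of the 8 genes of this second slow list were highest in p53R172H/- tumor 2, and another 3 in p53R172H/- tumor 1. Of the 6 slow genes of the first list, 0 were highest in either tumor. Of all genes tested, 12.3% were highest in p53R172H/- tumor 2, and with lists this short the counts are only a description. Of 10 further developmental genes 0 had such a range, the widest being Tnnt2, at 159 in p53R172H/- tumor 2 and 443 in p53R172H/+ tumor 1, and then Actc1, Ncam1 and Pax7 at 1.78, 1.67 and 1.60-fold.

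Cardiac and smooth muscle markers had narrower ranges than most fast genes. Without Gja1, which alone gave 7132 to 7922, the summed signal of the cardiac markers was 785 to 1013 over the 9 tumors and 827 in p53R172H/- tumor 2. Their widest members were Nppb at 2.25-fold, Tnni3 at least 1.98-fold and Myl7 at 1.85-fold, and the defining Myh6 stayed at 121 to 160. Without Acta2, the smooth muscle markers summed to 1633 to 1867, and to 1724 in p53R172H/- tumor 2, with Cnn1, Actg2 and Mylk widest at 2.09, 1.75 and 1.59-fold. A sum is read only against the same list in other tumors: that of the 13 fast genes was 1181 to 30712, and that of the 6 slow genes 654 to 1002. The epithelial markers, Krt5 and Krt14, were bright and flat, at 10434 to 13213 and 19908 to 22692.

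**Figure D5:**
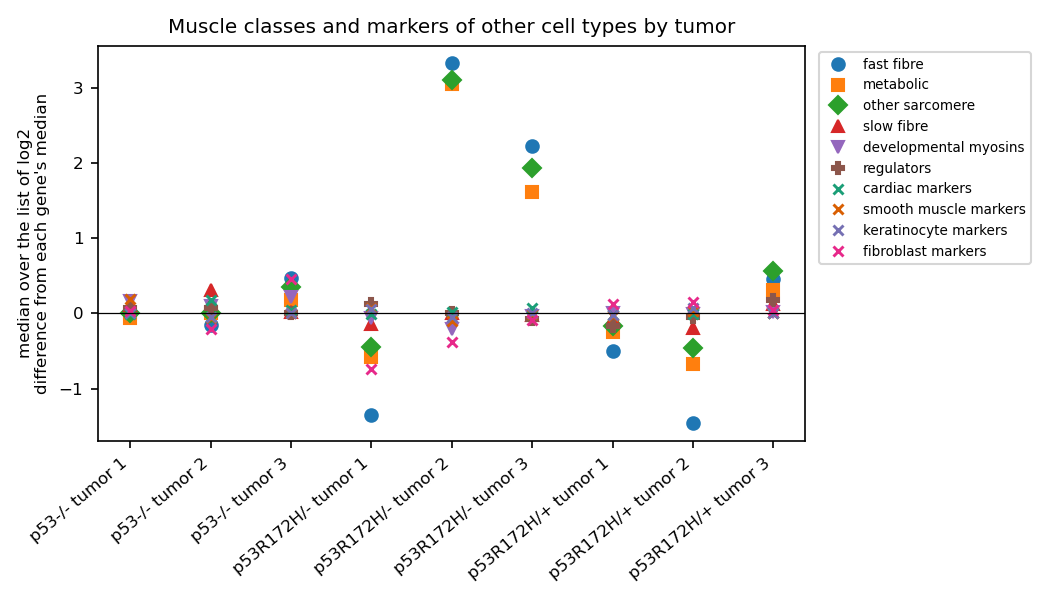
For each tumor (horizontal axis), the median over a gene list of the log2 difference from each gene's own median, for the muscle classes (filled) and markers of 4 other cell types (crosses). Fast fibre, metabolic and other sarcomere genes reached 3.33, 3.05 and 3.11 in p53R172H/- tumor 2. The slow fibre, cardiac, smooth muscle and keratinocyte lists lay between -0.10 and 0.02 in that tumor. The developmental myosins lay at -0.20 there and the fibroblast list at -0.38.

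Some genes of other cell types had their highest or lowest signals in the same tumors. Of the 9 keratinocyte markers Krt4, a keratin of the inner lining of the mouth, spanned 28.6-fold and reached 13502 in p53R172H/- tumor 2, while Krt13 and Krt17 spanned 2.00 and 1.41-fold. Of the 8 fibroblast markers, which summed to 13855 to 29077, Dcn and Pdgfra were highest in p53R172H/- tumor 2 (6.91 and 5.09-fold) and Lum in p53R172H/+ tumor 1 (4.32-fold). These 2 were the only ones of the 8 highest in p53R172H/- tumor 2. The list as a whole was lower there, with a median of -0.38 on the log2 scale from each gene's median, and Col1a1 had its lowest signal there, 1587. Of the 5 brown fat markers Elovl3 spanned at least 30.3-fold from p53R172H/+ tumor 2 to p53R172H/- tumor 2, whereas Cidea and the defining Ucp1 spanned 1.78 and 1.41-fold. Of the 6 nerve markers Pmp22 was 211 to 834 with its highest in p53R172H/- tumor 2, S100b was highest in p53R172H/+ tumor 3 and Sox10 spanned 1.54-fold.

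In the remaining lists the widest genes were Vwf, Pecam1 and Tek for endothelium (4.49, 2.08 and 2.02-fold), Lyz2, Ptprc and Cd68 for leukocytes (6.49, 2.70 and 2.21-fold), Aqp5, Krt18 and Pip for salivary gland (3.46, 2.23 and 1.56-fold) and Fabp4, Cidec and Retn for white fat (1.97, 1.93 and 1.57-fold). Of these 12 genes, 0 were highest in p53R172H/- tumor 2, against 12.3% of all genes tested, and so few genes do not set them apart from that share. Over the whole lists, 1 of the 8 leukocyte markers was highest there, and 0 of the endothelial, salivary and white fat markers. The part of other cell types in the muscle result was not tested.

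Outside the lists, hair genes were the widest of those with the same highest and lowest tumor as the muscle genes. Of all genes tested, 225 (1.85%) were highest in p53R172H/- tumor 2 and lowest in p53R172H/+ tumor 2, as the median muscle gene was. The 10 of them with the largest range were the keratin-associated proteins Krtap15, Krtap9-3, Krtap11-1, Krtap8-1, Krtap4-6 and Krtap19-9b, which fill the hair shaft, the hair keratins Krt33a, Krt34 and Krt86, and Krt79, a keratin of the hair follicle, with ranges from at least 30.3-fold (Krtap19-9b) to 53.1-fold (Krtap15). Krtap15 gave 1046, 429 and 1051 in p53-/-, 158, 2998 and 1526 in p53R172H/-, and 383, 56.4 and 698 in p53R172H/+. Krtap15 thus had 1046 and 1051 in p53-/- tumors 1 and 3 against 1526 in p53R172H/- tumor 3. Muscle genes varied in this gap. Myh4 had 159 and 157 against 1426, while Myh2 had 104 and 244 against 288.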

How the data were processed

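Total RNA of 9 oral tumors was labelled with biotin and read on Affymetrix arrays, per the labels' protocols. The authors deposited 1 linear signal intensity per probe set, made with MAS5 per the submitters' processing notes, while the version and scaling were not given in the sources used here. Of 45101 probe sets, 64 were controls, 34945 had 1 symbol, 932 several and 9160 none, and only those with 1 symbol were used.

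Intensities under 52.6 (the 20th percentile) were set to that value before log2, without normalization between arrays. The probe set with the highest mean stood for a gene, and genes with a mean under 113 (the median of non-control probe sets) were not tested, which left 12167 of 18193 genes and 30 of 42 muscle genes. Group means were estimated from all 9 arrays with limma 3.58.1 (R 4.3.3; lmFit, eBayes with a variance trend), two-sided, Benjamini-Hochberg adjusted over all genes tested, with a threshold of 0.05. The fit was tested on simulated data. Settings tried were the normalization, floor, filter, probe set, variance model, samples in the fit, tumor number as a block and tumors left out.

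The muscle genes and all gene lists were chosen with earlier results of these data known. The rule for named genes gave all 42 members, the 4 genes with the largest range of each further muscle list, up to 3 genes of each other cell type and the 10 genes most like the muscle order. Krt5, Krt14 and Myh6 were named as defining markers after their values were seen. RefSeq promoter windows (GRCm38.p6) were matched by symbol. Values of the targeted gene are not reported here.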

Additional observations from a re-analysis of the deposited data

How the results depend on the processing

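No muscle gene passed the adjusted threshold in any comparison under any setting tried, and all genes called were 0 except for 3 in p53R172H/- minus p53-/- without both p53R172H/- tumors 2 and 3. Under every scaling, floor, filter, probe set and variance setting the muscle medians of the 3 comparisons (0.48, -0.28 and 0.93 as reported) kept their sign. The numbers of muscle genes at an unadjusted p under 0.05, reported as 1 for p53R172H/- minus p53-/-, 0 for p53R172H/+ minus p53-/- and 1 for p53R172H/- minus p53R172H/+, moved. In this order of comparisons, they became 3 in the first and 3 in the last with the floor at the 30th percentile, 2, 1 and 2 without a filter on low genes, and 4 in the first and 5 in the last with the filter on the highest array. The last became 2 with arrays scaled to one trimmed mean, with the mean over probe sets or with the lowest probe set, and the second became 1 with only the compared groups fitted. The share of all genes at this p is not given for these settings, so the counts are not read as a result about the muscle genes. The filter on the highest array also keeps a gene through its highest tumor alone. The cause was not tested.

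With tumor number as a replicate block the last count became 4 and the medians stayed at 0.48, -0.28 and 0.93. Deviations of same-numbered tumors correlated between -0.497 and 0.237, so the numbers were not taken as pairing the tumors.

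With each tumor left out in turn, the medians ranged from 0.092 to 1.49, from -0.47 to -0.09 and from 0.40 to 1.65, and the counts at an unadjusted p under 0.05 from 1 to 18, 0 to 2 and 1 to 20, the high ends of the first and last without p53R172H/- tumor 1. The fast median between the highest and lowest tumor ranged from 3.91 to 5.01 and the slow one from 0.14 to 0.20, and 24 to 28 muscle genes were highest in one tumor. Without both p53R172H/- tumors 2 and 3, the counts were 2, 1 and 0, the medians of the first and last comparison -0.48 and -0.28, the fast and slow medians 2.06 and 0.39, and 16 muscle genes were highest in 1 tumor, p53R172H/+ tumor 3. Fewer tumors entered these fits, and their counts carry the same limits of filter and missing shares. Probe sets near the floor limit what can be said of the slow and developmental genes.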
